A study of Bos taurus with 6 samples.

Results

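C/D box small nucleolar RNAs (snoRNAs, gene names SNORD) were examined in small RNA libraries of bovine fat cell cultures. They were taken as the table rows typed as snoRNA whose description contains SNORD, which gave 99 of 2213 rows. All 99 are families of the Rfam database, so that 1 row can pool several genes or near-identical copies. The libraries came from 3 samples of preadipocytes, the committed precursors of fat cells, and 3 samples labelled adipocytes. The cells of both groups derived from adipose tissue of Holstein cattle, and passages 4 to 6 were grown in F12/DMEM medium with 10% fetal bovine serum and 1% antibiotics. For differentiation the protocol lists rosiglitazone, IBMX, insulin and dexamethasone, and the same protocol text stands with both groups. How long the cells were induced is not stated there. The labels do not say whether the replicates of a group are different animals or cultures. The p-values therefore reflect only how these samples vary, which may be technical variation. The question set by the design was which small RNAs differ between the 2 cell states.

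C/D box snoRNAs pair with a ribosomal RNA and guide the enzyme fibrillarin to methylate a ribose at the paired base. A few members instead assist cleavage of the ribosomal RNA precursor, and the orphan members of imprinted domains have no established ribosomal target. In mammals most of them are cut from introns of ribosomal protein genes, translation factor genes or noncoding host genes. The library protocol kept RNA of 18 to 30 nt, which is shorter than a whole C/D box snoRNA, so the counts are of fragments and not of the intact RNA. Fewer cells with a fragment and less fragment per cell cannot be told apart in such bulk samples.

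The libraries differed in quality measures that are given here because they move with several results. The table held 19292757 to 25801117 reads per library, of which 15145598 to 22579865 fell in the 2030 rows used here. Ribosomal RNA took 1.91% and 2.12% of these reads in preadipocyte replicates 1 and 2, 0.541% in preadipocyte replicate 3 and 0.965% to 1.01% in the adipocytes. Reads assigned only to an exon, intron, intergenic or repeat class made up 18.5% and 18.9% of the table in preadipocyte replicates 1 and 2 but 5.29% in replicate 3, against 8.21% to 12.01% in the adipocytes. Preadipocyte replicate 3 therefore stood apart from its group. The mesenchymal miR-143 was abundant in every library, with a lowest level of 17614 CPM (CPM are counts per 1000000 reads of the rows used). Its groups overlapped, as did those of miR-145 and miR-214. In contrast, miR-148a was at 2110, 1912 and 1132 CPM in adipocytes and 434, 231 and 339 CPM in preadipocytes (replicates 1, 2 and 3). Likewise miR-199a stood at 11957 to 15287 CPM in adipocytes and 2145 to 3185 CPM in preadipocytes. For miR-378 the ranges were 3929 to 8708 and 931 to 2782 CPM. The blood miR-223 and miR-144, the liver miR-122 and the epithelial miR-141 and miR-200 family stayed below 0.4 CPM. The third blood marker, miR-451, lay at 0.259 to 0.978 CPM in adipocytes and at 2.43, 3.57 and 1.28 CPM in preadipocyte replicates 1, 2 and 3, so that it was highest in preadipocyte replicates 1 and 2. Of the muscle markers, miR-1 lay between 11.7 and 32.1 CPM, miR-133a between 1.63 and 5.41 CPM and miR-206 below 0.67 CPM. The part of these other cell types in the results was not tested. The endothelial miR-126 lay at 43.9 to 89.3 CPM in adipocytes and at 91.9, 111.9 and 329.7 CPM in preadipocyte replicates 1, 2 and 3. Its groups did not overlap, and it was highest in preadipocyte replicate 3.

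The share of raw reads taken by SNORD fragments differed between the cell states by less than the spread between replicates. The shares were 0.147%, 0.173% and 0.168% in adipocyte replicates 1, 2 and 3 and 0.177%, 0.158% and 0.166% in preadipocyte replicates 1, 2 and 3. The groups overlapped, with means of 0.163% ± 0.0137 and 0.167% ± 0.00948 (SD, n = 3 each; two-sided exact permutation p = 0.7, where 3 libraries against 3 cannot go below 0.1). These shares rest on 22552 to 37540 SNORD reads per library.

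H/ACA snoRNAs (SNORA rows), which guide the conversion of uridine to pseudouridine, did not keep such an even share. They took 0.00751%, 0.0064% and 0.00717% in the adipocytes, 0.0249% and 0.0178% in preadipocyte replicates 1 and 2, and 0.00825% in replicate 3 of that group. Every adipocyte library thus lay below every preadipocyte library (two-sided exact permutation p = 0.1, n = 3 each). The number of SNORD reads for each SNORA read, a ratio that needs no scaling between libraries, was 19.6, 27.1 and 23.4 in adipocytes and 7.11, 8.90 and 20.2 in preadipocytes. On this ratio preadipocyte replicate 3 fell within the adipocyte range and the other preadipocyte libraries below it (two-sided exact permutation p = 0.2, n = 3 each). SNORD rows made up 81.4% to 84.2% of all snoRNA-type reads in adipocytes and 62.6%, 69.6% and 80.8% in preadipocyte replicates 1, 2 and 3 (two-sided exact permutation p = 0.1, n = 3 each). Without preadipocyte replicate 3 the preadipocyte means moved from 0.017% to 0.0213% for the SNORA share, from 12.1 to 8.00 for the ratio and from 71.0% to 66.1% for the SNORD share of snoRNA-type reads. Ribosomal RNA and the reads by genome feature were also high in preadipocyte replicates 1 and 2, and their part in these ratios was not tested.

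**Figure D1:**
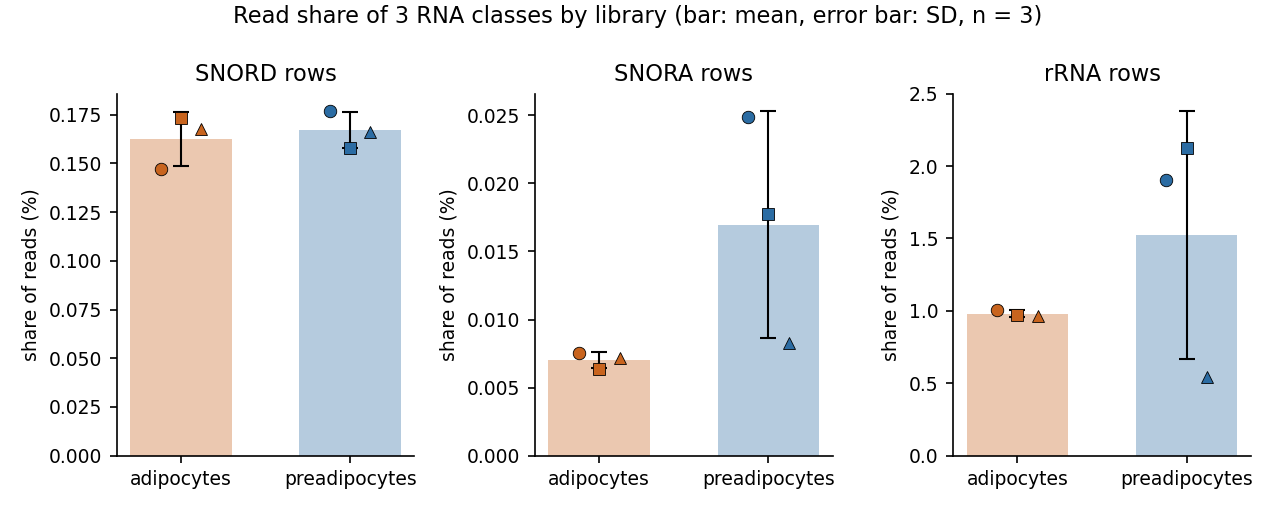
Share of the reads (%) taken by SNORD, SNORA and ribosomal RNA rows in each of the 6 libraries (points; bars are group means and error bars SD, n = 3). The SNORD shares lie between 0.147% and 0.177% in all libraries, while SNORA and ribosomal RNA are high in preadipocyte replicates 1 and 2 (circle and square) and not in replicate 3 (triangle).

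Few families carried most of the SNORD reads. The 4 families with the most reads held 50% and the first 31 held 90% of them, as a mean over the libraries. All 99 had a read in at least 1 library and 92 in every library, and 5 had fewer than 10 reads in all libraries together. Levels are given below as CPM of the rows tested, scaled with edgeR's TMM factors, which ranged from 0.79 to 1.29. On this scale the SNORD rows summed to 1464 ± 328 CPM in adipocytes and 1889 ± 211 CPM in preadipocytes (SD, n = 3 each). The groups overlapped, with adipocyte replicate 3 at 1835 CPM above preadipocyte replicate 2 at 1682 CPM. The near equality of the raw read shares thus depends on the scale. CPM is not divided by length, so the order of families is an order of read numbers. At this depth a count of 0 allows up to 0.151 to 0.211 CPM, as set by the depth of each library, with counting error alone considered.

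SNORD74, a GAS5 intron snoRNA in human, had the highest mean. It stood at 166, 249.6 and 326 CPM in adipocyte replicates 1, 2 and 3 and at 353, 457 and 462 CPM in preadipocyte replicates 1, 2 and 3. The groups did not overlap, and the log2 difference, adipocytes over preadipocytes as throughout, was -0.78 (SE 0.34), which missed the threshold with an adjusted p of 0.192 in edgeR's quasi-likelihood test (Benjamini-Hochberg, BH). As a share of SNORD reads alone it took 13.7%, 18.6% and 17.8% in adipocytes and 18.8%, 27.1% and 21.97% in preadipocytes, again without overlap (two-sided exact permutation p = 0.1, n = 3 each).

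SNORD78, also encoded in GAS5 introns in human, was at 181, 206 and 345 CPM in adipocytes and 290.2, 173 and 476 CPM in preadipocytes. Its groups overlapped, with replicate 3 the highest library of each (log2 difference -0.36, SE 0.47, adjusted p = 0.65). SNORD104, hosted by SNHG25 in human, was at 152, 124 and 218 CPM in adipocytes and 105, 93.6 and 175 CPM in preadipocytes. Its preadipocyte replicate 3 lay inside the adipocyte range and the other preadipocyte libraries below it (log2 difference 0.40, SE 0.39, adjusted p = 0.545; 0.74 and adjusted p = 0.151 without preadipocyte replicate 3). For SNORD43, in an intron of the ribosomal protein gene RPL3 in human, levels were 104, 80.1 and 120.4 CPM in adipocytes and 98.9, 74.7 and 140.3 CPM in preadipocytes, which overlapped fully (log2 difference -0.04, SE 0.36).

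SNORD66, hosted in human by the translation initiation factor gene EIF4G1, was at 65.2, 140.3 and 142 CPM in adipocytes and 31.4, 32.1 and 86.7 CPM in preadipocytes. Only preadipocyte replicate 3 reached the adipocyte range (log2 difference 1.21, SE 0.56, adjusted p = 0.209). SNORD50, known for binding the signalling protein K-Ras, showed the opposite order, at 26.1, 30.9 and 23.98 CPM in adipocytes, 74.6 and 159 CPM in preadipocyte replicates 1 and 2 and 20.01 CPM in replicate 3 of that group (log2 difference -1.65, SE 0.71, adjusted p = 0.184). SNORD57, from the introns of NOP56, a core protein of C/D box particles, also had its high values in preadipocyte replicates 1 and 2. Its levels were 10.7, 8.20 and 19.3 CPM in adipocytes, 87.3 and 59.3 CPM in preadipocyte replicates 1 and 2, and 13.7 CPM in replicate 3 of that group (log2 difference -2.07, SE 0.72, adjusted p = 0.131). This was the most negative of the SNORD estimates. Without preadipocyte replicate 3 the estimates were 1.88 for SNORD66, -2.11 for SNORD50 and -2.52 for SNORD57, and all passed (adjusted p = 0.032, 0.0177 and 0.0177). Of all rows tested without that library, 29.8% passed. Among the remaining rows of the 10 with the most reads, SNORD15 of RPS3 (39.1 ± 3.03 and 44.1 ± 22.9 CPM in adipocytes and preadipocytes) and SNORD16 of RPL4 (31.9 ± 20.3 and 36.1 ± 5.10 CPM) overlapped between the groups (SD, n = 3 each).

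**Figure D2:**
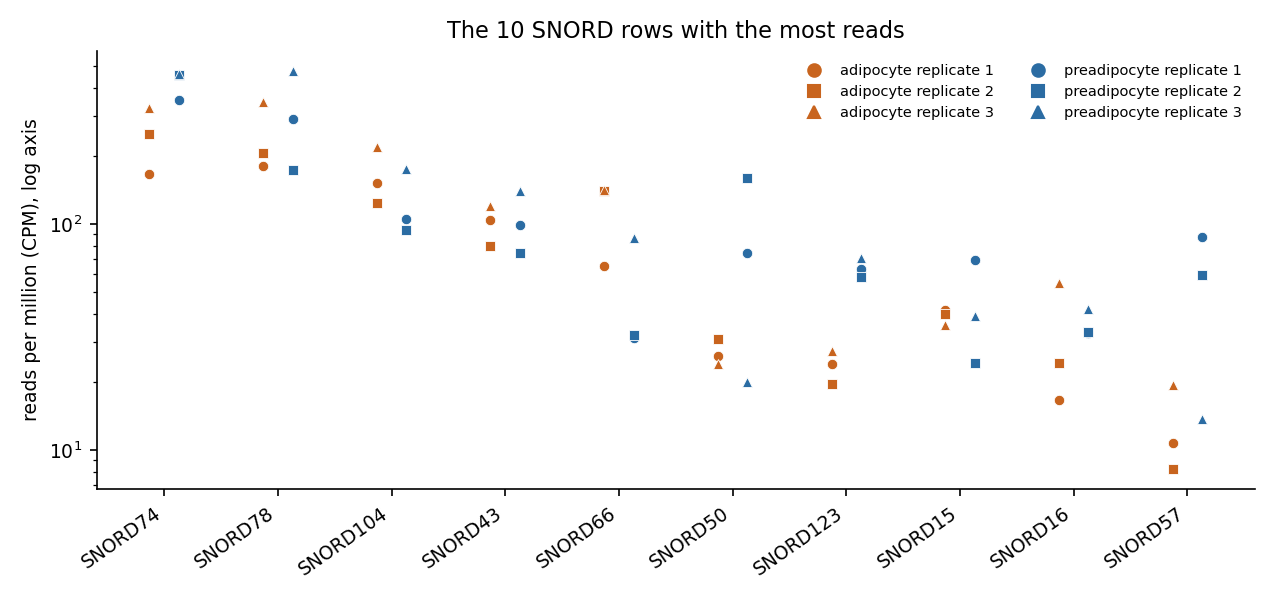
Level in CPM (log axis) of the 10 SNORD families with the most reads, with 1 point per library (orange adipocytes, blue preadipocytes; marker shape is the replicate number). SNORD74 and SNORD123 are lower in all adipocyte libraries, and for SNORD50 and SNORD57 preadipocyte replicate 3 (blue triangle) lies with or below the adipocytes.

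In the comparison of adipocytes with preadipocytes, 0 of the 85 tested SNORD rows passed an adjusted p of 0.05 in edgeR's quasi-likelihood test (BH over 861 rows), where 3.37% of all tested rows did, 2.56% higher and 0.813% lower in adipocytes. The other 14 SNORD rows did not pass the filter on low counts. Without adjustment, 13 of the 85 had p below 0.05 and all 13 were lower in adipocytes, where 12.2% of all tested rows were lower and 15.9% higher at that level. DESeq2 on the same rows called 10 SNORD rows, all lower in adipocytes, where it called 20.3% of all rows with an adjusted p. Adipocyte and preadipocyte libraries did not overlap for 16 SNORD rows on the lower side and 3 on the higher side, where the share over all tested rows was 15.1% and 21.1%. At 13 and 16 of 85, the counts on the lower side were near the shares of all rows. The count of SNORD rows called was also 0 with library totals alone (6.04% of all rows called), with the factors of the miRNA rows (0.465%), without the low-count filter (0.197%), with Rfam rows alone (0.5%), with the Rfam miRNA families added (3.48%) and with the replicate number as a block (0.116%). On simulated counts of this comparison for 861 rows, 55.2% of 67 rows with an 8-fold change, 17.9% of 67 with a 4-fold change and 0 of 66 with a 2-fold change were called. Of 661 rows without a change, 2 were called. The low-count filter left 780 simulated rows to be fitted, and the rows it dropped counted as not called.

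Estimates of the SNORD rows leaned to the lower side on this scale. Of the 85, 64 were negative and 21 positive, with a median log2 difference of -0.50 against -0.07 over all tested rows, and 52.8% of all rows were negative. The SNORA rows had a median of -1.25 (35 of 36 negative, 0 past the threshold) and the 10 ribosomal RNA rows one of -1.04, while the known miRNAs had 0.34. The SNORD median was -0.16 against 0.26 for all rows with library totals in place of TMM factors, and it turned to 0.21 against 0.02 when the Rfam rows other than miRNA families were fitted by themselves. The distance of the SNORD median from that of all rows, -0.43, was -0.28 without adipocyte replicate 1, -0.19 without adipocyte replicate 2, -0.13 without the low-count filter and -0.25 with limma on TPM, and -0.62 without preadipocyte replicate 2.

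**Figure D3:**
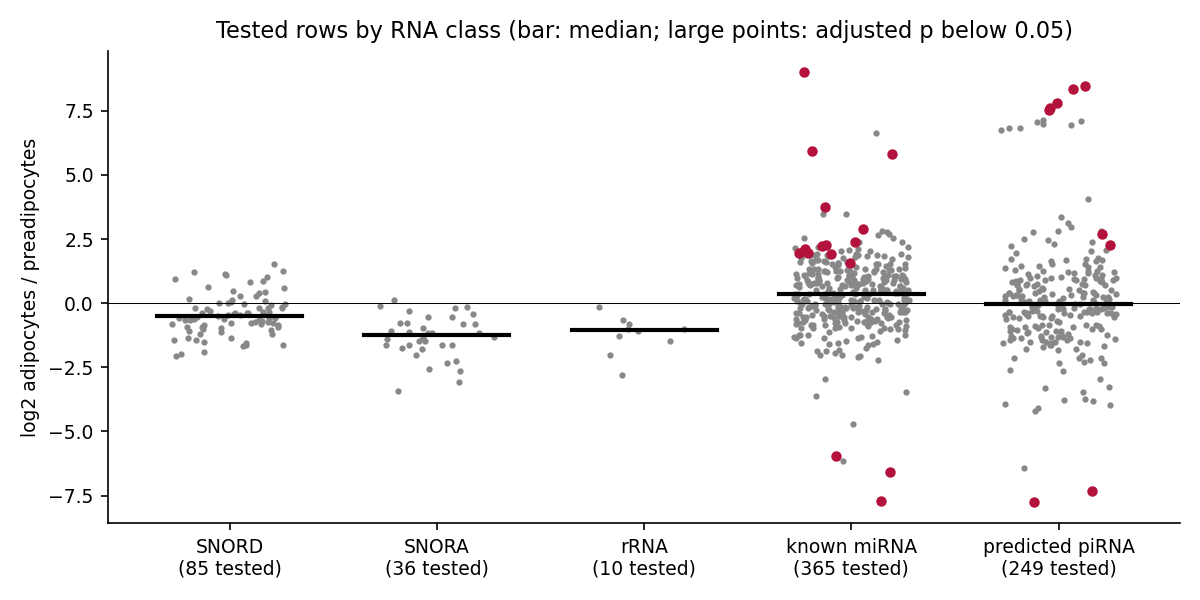
Log2 difference between adipocytes and preadipocytes for each tested row, by RNA class (points; large red points passed an adjusted p of 0.05 and black bars are class medians). None of the 85 SNORD rows is red and their median is -0.50, between those of SNORA (-1.25) and known miRNAs (0.34).

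The family with the smallest adjusted p was SNORD93, at 6.19, 5.89 and 7.10 CPM in adipocytes and 24.5, 17.8 and 13.8 CPM in preadipocytes. Its groups did not overlap, and preadipocyte replicate 3 lay nearest to the adipocytes (log2 difference -1.55, SE 0.34, adjusted p = 0.0579). SNORD123 was at 23.9, 19.6 and 27.4 CPM in adipocytes and 63.3, 58.1 and 70.4 CPM in preadipocytes. Preadipocyte replicate 3 was its highest library, unlike in SNORD50 and SNORD57 (log2 difference -1.43, SE 0.31, adjusted p = 0.0581). Next came SNORD62, at 1.29, 1.26 and 1.73 CPM in adipocytes and 3.93, 4.78 and 3.53 CPM in preadipocytes (log2 difference -1.51, SE 0.35, adjusted p = 0.0671), which rests on 24 to 68 reads per library. SNORD60 (0.999 ± 0.201 and 3.17 ± 0.905 CPM, log2 difference -1.66) and SNORD99, hosted by SNHG12 (1.55 ± 0.244 and 4.82 ± 1.94 CPM, log2 difference -1.63), also did not overlap (adjusted p = 0.0724 and 0.0849).

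SNORD93, SNORD123, SNORD62 and SNORD60 missed the threshold narrowly, and their calls depended on the setting. They passed when predicted piRNA rows were left out (4 SNORD rows called, all lower) and with DESeq2. SNORD93 and SNORD123 also passed with a minimum of 10 CPM, together with SNORD24 (3 SNORD rows called), SNORD93 with upper-quartile factors and SNORD123 with limma on the deposited TPM. The share of all rows called was 5.56% without piRNA rows, 8.61% with the 10 CPM minimum, 3.72% with upper-quartile factors and 13.8% with limma.

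Leaving out preadipocyte replicate 3 moved the count of SNORD rows past the threshold from 0 to 15, of which 12 were lower and 3 higher in adipocytes, where 29.8% of all rows tested without that library passed. The 12 were SNORD14, SNORD93, SNORD12/SNORD106, SNORD99, SNORD50, SNORD57, SNORD123, SNORD62, SNORD24, SNORD67, SNORD60 and SNORD61, and the 3 were SNORD113/SNORD114, SNORD27 and SNORD66, with adjusted p-values of 0.0147 to 0.0473. Leaving out any other library gave 0, with 0.0973%, 0.0979%, 0.4%, 0.109% and 0.106% of all rows passing without adipocyte replicates 1, 2 and 3 and preadipocyte replicates 1 and 2. For 16 of the 85 tested SNORD rows, preadipocyte replicate 3 lay inside the adipocyte range while both other preadipocyte libraries lay outside it on the same side, where the share over all tested rows was 14.8%. The other preadipocyte libraries lay above that range in 10 of the 16 and below it in 6.

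The SNORD113/SNORD114 row (Rfam family RF00181) stands for snoRNAs of an imprinted domain, DLK1-DIO3, where the maternally expressed host MEG8 carries them in its introns. RefSeq genes on ARS-UCD2.0 include 33 snoRNA genes inside bovine MEG8, and the single Rfam row pools whichever of them matched. The row held 40, 35 and 33 reads in adipocyte replicates 1, 2 and 3, 2 and 3 reads in preadipocyte replicates 1 and 2, and 36 reads in replicate 3 of that group. The exact 95% Poisson intervals, which cover counting error only, spanned 22.7 to 54.5 reads over the adipocyte libraries, 0.242 to 7.22 and 0.619 to 8.77 reads for the pair of low preadipocyte libraries, and 25.2 to 49.8 reads for preadipocyte replicate 3. The intervals of the low pair did not reach those of the other 4 libraries.

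On the CPM scale the SNORD113/SNORD114 row was at 2.15, 1.76 and 1.84 in adipocytes and 0.117, 0.211 and 2.02 in preadipocytes. The groups overlapped through preadipocyte replicate 3 alone, and the log2 difference was 1.27 (SE 1.00, adjusted p = 0.444). Without that library it was 3.52 (SE 0.50, adjusted p = 0.0147), resting on 2 preadipocyte libraries with 5 reads between them. In that setting 29.8% of all rows passed. The estimate fell to 0.65 without preadipocyte replicate 1 and to 0.83 without preadipocyte replicate 2 (adjusted p = 0.697 and 0.677). It was 1.21 to 1.34 with an adipocyte library left out. As a share of SNORD reads the row took 0.136% ± 0.0387 in adipocytes and 0.0382% ± 0.05 in preadipocytes, and the lowest adipocyte library (0.101%) was just above preadipocyte replicate 3 (0.0959%; two-sided exact permutation p = 0.1, n = 3 each). Per reads of the whole table the groups overlapped (two-sided exact permutation p = 0.2, n = 3 each).

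The miRNAs of the same domain did not share the high value in preadipocyte replicate 3. The 55 known miRNA rows of the DLK1-DIO3 domain summed to 3922, 3991 and 3903 CPM in adipocytes and 1465, 1611 and 1844 CPM in preadipocytes, so that all preadipocyte libraries lay below all adipocyte libraries (two-sided exact permutation p = 0.1, n = 3 each). Per 100000 reads of these miRNAs the SNORD113/SNORD114 row had 54.9, 44.1 and 47.2 reads in adipocytes, 8.01 and 13.1 in preadipocyte replicates 1 and 2, and 109.5 in replicate 3 of that group (two-sided exact permutation p = 1, n = 3 each). Preadipocyte replicate 3 thus had the highest ratio and the other preadipocyte libraries the lowest.

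The other tested imprinted orphan snoRNAs, of the SNURF-SNRPN domain, had negative estimates with all libraries and TMM factors, unlike the SNORD113/SNORD114 row. SNORD107 was at 2.69, 3.83 and 7.99 CPM in adipocytes and 12.4, 8.29 and 7.12 CPM in preadipocytes (log2 difference -0.94, SE 0.49, adjusted p = 0.248). Its preadipocyte replicate 3 also lay inside the adipocyte range, but the other preadipocyte libraries lay above that range. SNORD116, deleted in Prader-Willi syndrome in human, was at 0.861, 0.906 and 3.19 CPM in adipocytes and 2.17, 2.04 and 1.57 CPM in preadipocytes, which overlapped (log2 difference -0.22, SE 0.61). Of the 3 tested imprinted orphan rows 0 passed. SNORD109A, with 5, 7 and 7 reads in adipocytes and 3, 2 and 1 in preadipocytes, and SNORD108, with 1 read in all, did not pass the filter.

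**Figure D4:**
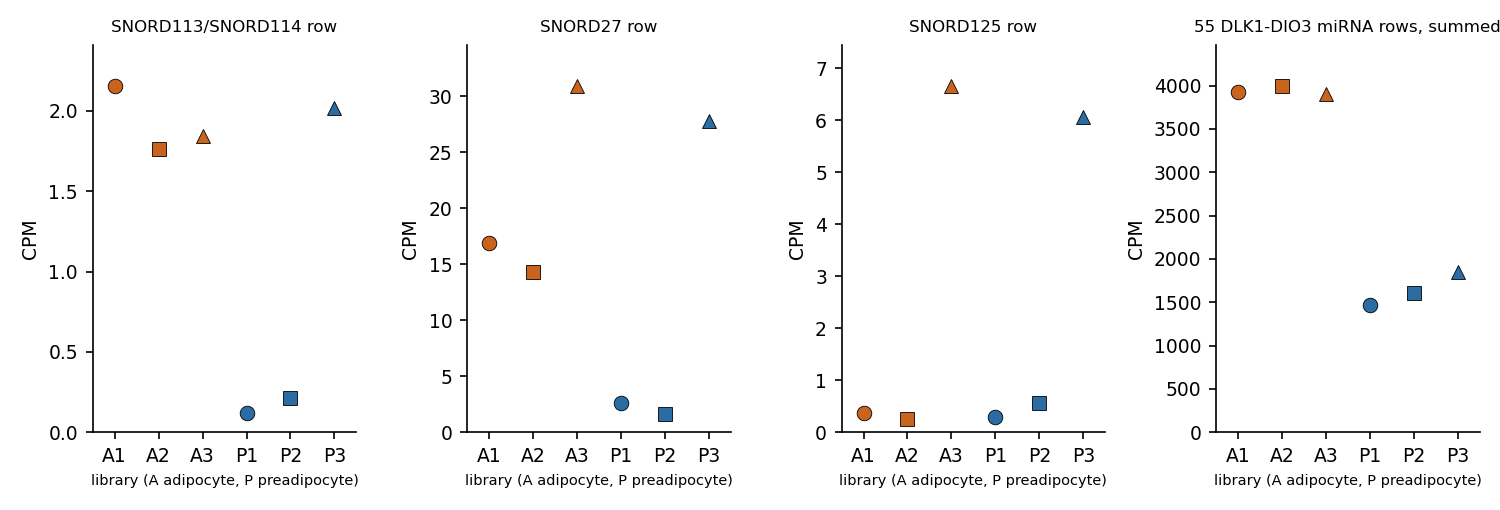
Level in CPM by library of the SNORD113/SNORD114, SNORD27 and SNORD125 rows and of 55 DLK1-DIO3 miRNA rows summed (each panel has its own axis from 0). Preadipocyte replicate 3 (P3) lies with the adipocytes for SNORD113/SNORD114 and SNORD27 and with the other preadipocytes for the miRNAs, and SNORD125 is high only in the replicate 3 library of each group.

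SNORD27, a methylation guide for the 18S ribosomal RNA from the host SNHG1, had a pattern across the preadipocytes like that of SNORD113/SNORD114, with more reads. It was at 16.9, 14.3 and 30.9 CPM in adipocytes (285 to 553 reads), at 2.64 and 1.62 CPM in preadipocyte replicates 1 and 2 (45 and 23 reads), and at 27.8 CPM in replicate 3 of that group. The log2 difference was 0.95 (SE 1.05, adjusted p = 0.596) with all libraries and 3.28 (SE 0.51, adjusted p = 0.0166) without preadipocyte replicate 3, where 29.8% of all rows passed. It fell to 0.36 without preadipocyte replicate 1 and to 0.44 without preadipocyte replicate 2 (adjusted p = 0.871 and 0.837). With an adipocyte library left out it was 0.55 to 1.16. SNHG1 hosts 7 tested SNORD rows in all, of which 0 passed, and the other 6 had negative estimates of -0.67 to -0.31. SNORD27 thus differed in sign from the other rows of its host with TMM factors; with Rfam rows alone the median of the 7 was positive, at 0.30.

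The GAS5 host, a noncoding gene named for its build-up in growth-arrested cells, gave 8 SNORD rows. Of the 7 tested, 0 passed the threshold, 6 had a negative estimate, and the median was -0.78 against -0.07 for all rows. SNORD47 was at 4.36, 4.38 and 4.36 CPM in adipocytes and stood at 11.7, 6.53 and 6.62 CPM in preadipocytes, without overlap (log2 difference -0.92, SE 0.34, adjusted p = 0.145). SNORD81 overlapped, with means of 2.48 ± 0.987 CPM in adipocytes and 4.67 ± 1.62 CPM in preadipocytes (log2 difference -0.91, adjusted p = 0.234).

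The RPL13A introns hold SNORD32, SNORD33, SNORD34 and SNORD35 in human, which have been linked to cell death under lipid overload. Bovine RPL13A also has 4 snoRNA genes inside it in the RefSeq table. The row that pools SNORD33 and SNORD32 was at 3.44, 2.47 and 4.47 CPM in adipocytes and 7.51, 3.51 and 5.05 CPM in preadipocytes (log2 difference -0.63, SE 0.42, adjusted p = 0.356). SNORD35 was at 1.45, 1.21 and 1.62 CPM in adipocytes and 2.76, 2.25 and 1.68 CPM in preadipocytes (log2 difference -0.64, SE 0.39, adjusted p = 0.323). SNORD33/SNORD32 overlapped between the groups, SNORD35 did not, and 0 of the 2 tested rows passed. SNORD34 had 1 read in all.

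SNORD14, the U14 snoRNA needed for cleavage of the 18S ribosomal RNA precursor, was at 16.7, 16.4 and 14.3 CPM in adipocytes and 51.5, 47.8 and 21.2 CPM in preadipocytes. All adipocyte libraries of SNORD14 lay below all preadipocyte libraries (log2 difference -1.35, SE 0.42, adjusted p = 0.106). SNORD22 overlapped between the groups (log2 difference -0.34, SE 0.55, adjusted p = 0.723), and 0 of these 2 tested processing rows passed. The other processing snoRNAs of the C/D class are listed as U3, U8 and U13 rather than by a SNORD name and are no members here. U3, which the precursor's first cleavages require, had a mean of 90.3 ± 30.7 CPM over adipocytes against 271 ± 152 CPM over preadipocytes (RF00012, log2 difference -1.59, SE 0.50, adjusted p = 0.106; SD, n = 3 each). U8 and U13 overlapped between the groups. Their log2 differences were -0.40 (SE 0.47, adjusted p = 0.615) and 0.005 (SE 0.51, adjusted p = 0.995), so the low level in adipocytes was not shared by all processing snoRNAs.

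Rows hosted by ribosomal protein genes other than RPL13A numbered 18, of which 16 were tested, 0 passed and 13 had a negative estimate (median -0.19 against -0.07 for all rows). SNORD24, from RPL7A, was at 16.6, 16.1 and 16.5 CPM in adipocytes and 43.7, 33.3 and 29.2 CPM in preadipocytes. Its groups did not overlap (log2 difference -1.11, SE 0.31, adjusted p = 0.0912). SNORD21, from RPL5, lay apart in the other direction, at 21.4, 18.9 and 22.5 CPM in adipocytes and 13.96, 9.55 and 17.3 CPM in preadipocytes (log2 difference 0.62, SE 0.33, adjusted p = 0.266).

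Of the 12 tested rows in introns of the nucleolar protein genes NOP56, NOP58, NCL and GNL3, 0 passed, 8 were negative and 4 positive (median -0.34). Beside SNORD57, described above, SNORD86 of the same host NOP56 was at 0.215, 1.06 and 1.68 CPM in adipocytes and 4.93, 4.64 and 1.51 CPM in preadipocytes. Its preadipocyte replicate 3 lay inside the adipocyte range, as for SNORD57 (log2 difference -1.90, SE 0.80, adjusted p = 0.178; -2.27 and adjusted p = 0.0787 without preadipocyte replicate 3). The highest SNORD estimate was that of SNORD19B from GNL3, at 15.4, 11.6 and 1.73 CPM in adipocytes and 2.17, 5.06 and 2.86 CPM in preadipocytes (log2 difference 1.52, SE 0.78, adjusted p = 0.247). It rests on adipocyte replicates 1 and 2, since adipocyte replicate 3 was the lowest of all libraries.

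Among the 9 tested rows of noncoding hosts other than GAS5 and SNHG1, 0 passed, 5 were negative and 4 positive. Their median of -0.58 depended on single libraries, at -0.16 without preadipocyte replicate 3, -0.33 without preadipocyte replicate 1, and -0.30 and -0.36 without adipocyte replicates 1 and 2. SNORD87, from SNHG6, did not overlap and was higher in adipocytes (1.32 ± 0.384 and 0.644 ± 0.207 CPM, log2 difference 1.02, adjusted p = 0.257). Of 5 tested rows of translation factor genes, 0 passed and 4 were negative (median -0.77). SNORD10, from EIF4A1, was at 16.7, 15.5 and 20.5 CPM in adipocytes and 37.2, 25.9 and 28.6 CPM in preadipocytes, without overlap (log2 difference -0.80, SE 0.32, adjusted p = 0.16). SNORD97, from EIF4G2, overlapped at 1.64 ± 0.59 and 4.47 ± 2.78 CPM in the same order (log2 difference -1.45, adjusted p = 0.16). With the Rfam rows fitted by themselves the list medians turned positive for the imprinted orphan (0.36), RPL13A (0.05), SNHG1 (0.30), other noncoding host (0.17), other ribosomal protein (0.43) and nucleolar protein (0.36) rows, while those of GAS5 (-0.16), the processing snoRNAs (-0.15) and the translation factor genes (-0.10) remained negative. The median of the other ribosomal protein rows was also positive with library totals alone (0.11) and, at 0.0068, with limma on TPM, as was that of the nucleolar protein rows with limma (0.0042). With 1 library left out, the median of the imprinted orphan rows was 0.11 without adipocyte replicate 1 and 0.0866 without adipocyte replicate 2 but -1.10 without adipocyte replicate 3 and -0.35 without preadipocyte replicate 3, and that of the SNHG1 rows was 0.0059 without preadipocyte replicate 3 and -0.19 without adipocyte replicate 2. The nucleolar protein median was -0.17 without preadipocyte replicate 1, and the other ribosomal protein median -0.33 without preadipocyte replicate 2.

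The 31 SNORD rows in none of these groups, SNORD93, SNORD123, SNORD62 and SNORD60 among them, had 23 tested members with 17 negative and 6 positive estimates and a median of -0.71. SNORD91 (3.28 ± 2.18 and 1.51 ± 0.769 CPM, log2 difference 1.11, adjusted p = 0.328) was the highest of these and overlapped. SNORD67, named after its values were seen, was the lowest, at 0.699, 0.705 and 1.23 CPM in adipocytes and 5.86, 2.67 and 2.02 CPM in preadipocytes (log2 difference -1.996, SE 0.56, adjusted p = 0.0912), without overlap.

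**Figure D5:**
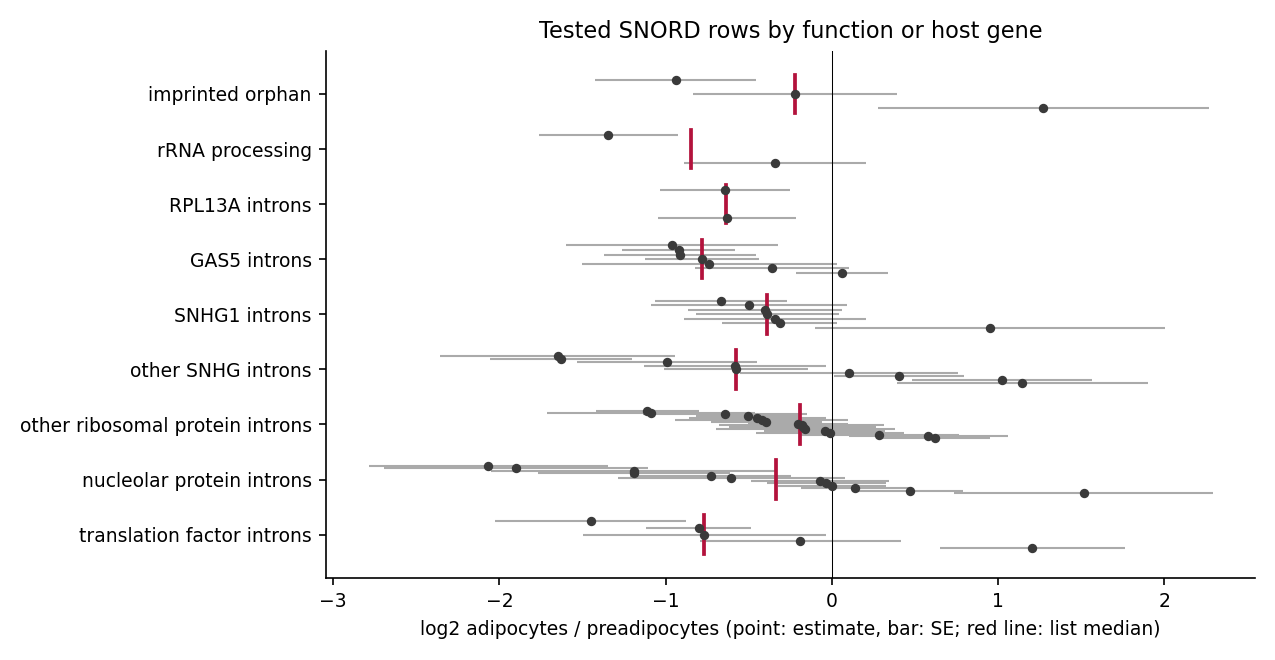
Log2 difference between adipocytes and preadipocytes of each tested SNORD row, grouped by function or by the host gene known in human (points with SE bars; red lines are group medians). All group medians lie below 0 with all 6 libraries and TMM factors, and the points above 1 include the SNORD113/SNORD114 row at 1.27, SNORD66 at 1.21 and SNORD19B at 1.52.

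By level, 28 of the tested rows had a mean of at least 10 CPM, 51 lay between 1 and 10 CPM and 6 below 1 CPM. At least a 2-fold difference was estimated for 23 rows, 17 lower and 6 higher in adipocytes. The share of all tested rows with such a difference was not counted, so these numbers do not set SNORD rows apart. The 14 rows that did not pass the filter had at most 11 reads in a library, except SNORD125, which is described among the other observations.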

How the data were processed

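The members and lists were chosen with earlier results of these data known. The submitters' processing notes name Bowtie2. Its version, the genome build and the treatment of reads matching several rows are not given in the sources used here. Deposited count columns are whole reads per row that the authors had not normalized, per the file headers. The deposited TPM values equal the count divided by 1 constant per library, with 0 written as 0.001, and served only in an alternative. Columns were matched to samples by title, and the cell type label set the groups.

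The fit used 2030 rows: all but the 4 genome-feature rows, which name no feature (5.29% to 18.9% of the table), and the 179 Rfam miRNA families, whose reads may repeat those of the miRNA rows. Differential abundance was tested with edgeR 4.0.16 in R 4.3.3 (filterByExpr, TMM, glmQLFit, glmQLFTest, group only, two-sided, BH over 861 rows, threshold 0.05). Alternatives used DESeq2 1.42.0, limma 3.58.1 on log2(TPM + 1), other scalings, filters and rows. Shares were compared with exact permutation tests in SciPy 1.17.1. The edgeR step was tested on simulated data.

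Rows named are SNORD113/SNORD114, the 10 with the most reads, the 5 with the smallest p each way and up to 4 per list; not every one is described. SNORD12/SNORD106, SNORD61, SNORD67, SNORD34, SNORD108, SNORD109A, SNORD125, U3, U8 and U13 were named after their values were seen. Host genes are those known in human. The bovine RefSeq genes include none with the symbol GAS5, SNHG1, SNHG6 or SNHG25, so these hosts were not checked in cattle. Bovine SNRPN and SNURF have 0 snoRNA genes inside them there. No 2 libraries of a group agreed within sampling noise. No sequences were printed.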

Additional observations from a re-analysis of the deposited data

How the results depend on the processing

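The count of SNORD rows past the threshold, 0, was 1 with upper-quartile factors (3.72% of all rows called) and 10 with DESeq2 (20.3%). It was 3 with a minimum of 10 CPM (8.61%), 4 without predicted piRNA rows (5.56%) and 1 with limma on the deposited TPM (13.8%). It ranged from 0 to 15 when each library was left out, and 15 was reached without preadipocyte replicate 3 (29.8%). The count stayed 0 with library totals alone (6.04%), with the factors of the miRNA rows (0.465%) and without the low-count filter (0.197%). It was also 0 with Rfam rows alone (0.5%) and with the Rfam miRNA families added (3.48%). The labels do not say whether equal replicate numbers mark paired samples. Deviations of same-numbered libraries from their group means correlated at -0.009, -0.123 and 0.129, and only replicate 3 correlated best with its own number. With 3 libraries per group these correlations cannot settle whether the libraries were paired. A pattern that both replicate 3 libraries share is given under the other observations. With the replicate number as a block, 0 SNORD rows and 1 of 861 rows passed, against 29 without the block. The median log2 difference of the SNORD rows, -0.50, was -0.16 with library totals alone, -0.78 with the factors of the miRNA rows, -0.10 with limma on TPM and 0.21 with Rfam rows alone, and ranged from -0.62 to -0.38 with each library left out. The SNORD share differed by -0.00451 percentage points (12.04 over snoRNA-type reads and 0.81 over Rfam reads), and by -0.00973 to 0.00327 with each library left out. The difference of the SNORD113/SNORD114 share, 0.0981 percentage points of SNORD reads, was positive under each denominator and 0.0776 to 0.127 with each library left out.

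Some single estimates changed sign, among them SNORD61, SNORD35 and SNORD33/SNORD32, at -0.71, -0.64 and -0.63 with TMM factors. With Rfam rows alone SNORD116 was 0.36, SNORD78 0.22, SNORD43 0.57, SNORD15 0.58, SNORD16 0.38, SNORD33/SNORD32 0.0447, SNORD35 0.0463 and SNORD61 0.0164. With library totals alone SNORD43 was 0.31, SNORD15 0.18 and SNORD16 0.0838. With limma on TPM SNORD43 was 0.25 and SNORD15 0.21, and without the low-count filter SNORD43 was 0.0758. With each library left out SNORD116 ranged from -1.10 to 0.11, SNORD78 from -0.68 to 0.0828, SNORD43 from -0.24 to 0.24, SNORD15 from -0.48 to 0.21 and SNORD16 from -0.81 to 0.15. The cause of these changes was not tested. The depth limits low rows most, since 3 reads correspond to 0.151 to 0.211 CPM.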

Other observations

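SNORD125 did not pass the filter on low counts and belongs in no comparison above. Its level was 0.377, 0.252 and 6.65 CPM in the adipocytes (7, 5 and 119 reads) and 0.293, 0.562 and 6.05 CPM in the preadipocytes (5, 8 and 108 reads), each in the order of replicates 1, 2 and 3. The libraries with the number 3 of both groups were therefore high and the other 4 low. Of 731 rows with a mean of at least 1 CPM, 2 lay at least 5-fold above the other 4 libraries in both of these libraries, SNORD125 and a known miRNA, and 28 lay at least 5-fold below them. This pattern was looked up after the values of SNORD125 were seen.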
